A study of Mus musculus with 4 samples.

Results

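The immediate early response genes examined here are 10 named genes, Fos, Fosb, Fosl1, Jun, Junb, Egr1, Atf3, Ier2, Ier3 and Dusp1, of 18194 genes named on the array. They were taken by symbol, as every probe set annotated to exactly 1 of these symbols, which gave 12 of 45101 probe sets. Jun and Fosl1 have 2 probe sets each and the other members 1 each. RNA came from mouse embryonic stem (ES) cells, and each of 4 groups was 1 Affymetrix MOE 430 2.0 array. The groups were ES cells with a constitutive Ring1B knockout (KO), the wild-type ES cells labelled as their control, ES cells at day 4 of a conditional Ring1A/B double KO induced with OHT, and the wild-type ES cells labelled as its control. Ring1A and Ring1B are catalytic subunits of Polycomb repressive complex 1, which modifies histone H2A. The labels give no strain, clone, feeder layer or harvest conditions, and do not say whether the control of the double KO received OHT. With 1 array a group, no difference below has a replicate error and no test was possible.

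Immediate early genes are switched on within minutes of a stimulus such as a growth factor or a stress, from transcription factors already present in the cell, and many of their messenger RNAs are short-lived. Signals through the MAP kinases reach serum response factor, its ETS partners and CREB at these promoters. Fos, Fosb and Fosl1 encode Fos proteins, which pair with Jun proteins (Jun, Junb) to form the AP-1 transcription factor. Egr1 is a zinc finger transcription factor, Atf3 a stress-induced bZIP factor, Ier2 and Ier3 rapid response proteins, and Dusp1 a phosphatase that inactivates MAP kinases.

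Promoter sequence was used for 7 of the 10 members (Fos, Fosb, Jun, Junb, Atf3, Ier3 and Dusp1), from the RefSeq promoter table of build GRCm38.p6. The promoters of Fosl1, Egr1 and Ier2 were not searched, so the motif counts below say nothing about these members. The 250 bases before the transcription start are shown for Fos, Jun, Atf3 and Ier3, which were at least 2-fold below their control on the double KO array, and for Dusp1, which was not. They are written 5′ to 3′, and capitals mark the CRE core TGACG, the longer TGACNTCA and the TATA core TATAA on either strand.
Fos (chr12:85473640-85473889, plus strand): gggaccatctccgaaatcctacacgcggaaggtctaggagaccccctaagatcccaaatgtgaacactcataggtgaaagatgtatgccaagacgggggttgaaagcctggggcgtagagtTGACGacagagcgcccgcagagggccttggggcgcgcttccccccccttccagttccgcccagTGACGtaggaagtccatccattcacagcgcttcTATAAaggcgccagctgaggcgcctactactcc
Jun (chr4:95052223-95052472, minus strand): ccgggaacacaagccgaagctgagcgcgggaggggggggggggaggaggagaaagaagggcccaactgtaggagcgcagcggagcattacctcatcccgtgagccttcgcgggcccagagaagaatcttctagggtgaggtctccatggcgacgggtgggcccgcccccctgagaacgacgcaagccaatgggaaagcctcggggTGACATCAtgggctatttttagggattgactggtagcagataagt
Atf3 (chr1:191183334-191183583, minus strand): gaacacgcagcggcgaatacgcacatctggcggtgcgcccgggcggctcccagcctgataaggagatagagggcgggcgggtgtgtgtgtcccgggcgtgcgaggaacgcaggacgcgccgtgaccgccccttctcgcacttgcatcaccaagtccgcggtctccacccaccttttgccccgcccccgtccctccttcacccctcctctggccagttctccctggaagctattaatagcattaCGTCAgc
Ier3 (chr17:35821463-35821712, plus strand): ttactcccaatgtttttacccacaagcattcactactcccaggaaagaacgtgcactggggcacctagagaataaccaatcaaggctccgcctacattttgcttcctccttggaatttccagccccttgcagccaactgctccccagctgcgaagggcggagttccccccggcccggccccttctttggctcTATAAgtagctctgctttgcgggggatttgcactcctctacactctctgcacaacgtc
Dusp1 (chr17:26508473-26508722, minus strand): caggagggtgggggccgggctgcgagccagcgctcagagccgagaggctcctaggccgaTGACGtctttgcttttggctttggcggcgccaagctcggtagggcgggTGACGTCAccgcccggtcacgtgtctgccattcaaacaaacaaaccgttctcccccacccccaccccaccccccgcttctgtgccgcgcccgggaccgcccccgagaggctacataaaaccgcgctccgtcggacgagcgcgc

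The CRE core TGACG, a piece of the cyclic AMP response element bound by CREB and ATF proteins, was in the 250 bases of 5 of the 7 members (Fos, Fosb, Junb, Atf3 and Dusp1) and in 17.8% of 32851 promoters of the same length. Fos had it at -129 and at -66 from the start, and Atf3 on the opposite strand between -7 and -3. The full element TGACGTCA, which contains that core, was in Dusp1 alone of the 7, at -143, and in 1.55% of all promoters. Jun held TGACATCA at -45, a match to TGACNTCA, which 7.49% of promoters held and which the full element also matches. TATAA was in Fos at -33 and in Ier3 at -58, and in 22.8% of promoters. The AP-1 site TGANTCA (6.75% of promoters) and the CArG box of serum response factor (1.47%) were in none of the 7 windows, which says only that these letters are not in these 250 bases. TGACG stood both in Fos and Atf3, which were at least 2-fold lower on the double KO array than on its control, and in Dusp1 and Junb, which were not.

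Values below are signals after each array was scaled to a common trimmed mean of 277, and signals of 36.6 or less are called below the floor. That floor is the 40th percentile of all scaled signals. A log2 difference of 1 is 2-fold. Probe sets differ in how well they bind, so each is compared only with itself across arrays. The 2 arrays of each KO and its control form a pair, and as deposited the pairs had trimmed means of 500 on both arrays of the first pair against 160 and 147 in the second. Differences across pairs therefore rest on the scaling. All 8 ES cell markers (Pou5f1, Nanog, Sox2, Zfp42, Esrrb, Dppa5a, Utf1 and Tdgf1) were above the floor on every array. Rnf2 read 2580, 2775, 2182 and 1986 at its brightest probe set on the Ring1B KO control, Ring1B KO, double KO control and double KO arrays, so the target did not separate KO from control. Ring1 read 146, 164, 44.7 and 55.6, and was not below its control on the double KO array. Whether these probe sets lie in the deleted parts is not given in the sources used here, so the genotypes are those of the labels throughout.

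Of the 10 members, 9 had a signal above the floor on at least 1 array. Fosb was below it on all 4 arrays (12.7, 1.77, 18.0 and 10.2, in the same order), so it has no fold in any comparison. The array labelled double KO control had the highest scaled signal for 5 of the 9 members (Fos, Jun, Junb, Atf3 and Ier3). Of all 13140 genes above the floor on any array, 31.9% were highest there. Which array is highest rests on the scaling of the pairs. The array labelled double KO was highest for Egr1 and Ier2, the Ring1B KO array for Fosl1 and the Ring1B KO control array for Dusp1.

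**Figure D1:**
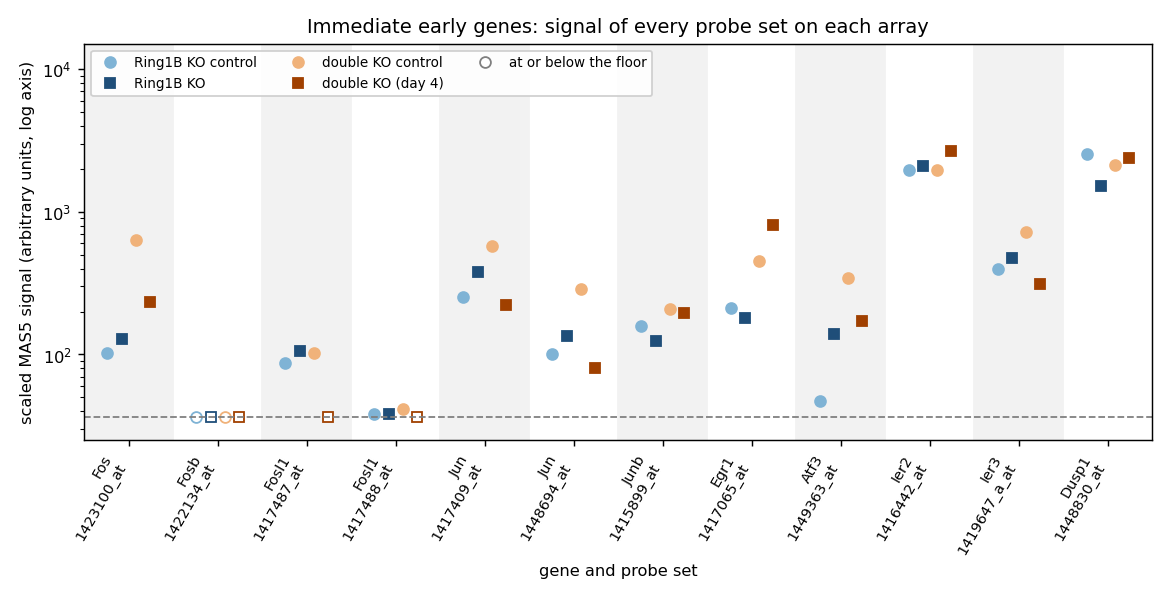
Scaled signal (arbitrary units, log axis) of each of the 12 probe sets of the 10 genes on the 4 arrays, 1 point an array; open symbols were at or below the floor of 36.6 (dashed line) and are drawn on it. Fos reached 638 and Atf3 343 on the double KO control array, above their other 3 arrays, while all 4 points of Fosb lie at the floor.

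Fos was above the floor on all 4 arrays. Its signal was 103 on the Ring1B KO control array, 127 on the Ring1B KO array, 638 on the double KO control array and 234 on the double KO array. Both arrays of the double KO pair were above both arrays of the Ring1B pair at this scaling. Fos was thus 1.24-fold higher on the Ring1B KO array than on its control, and 2.72-fold lower on the double KO array than on its control. The control arrays differed by more than either of these, with Fos 6.22-fold higher on the double KO control. Against the Ring1B KO control, the double KO array was 2.29-fold higher, so at this scaling the direction of Fos on the double KO array turns with the control chosen. As deposited, Fos read 124 on the double KO array, below 369 on its control and 185 on the Ring1B KO control.

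Fosl1, which encodes Fra-1, read 87.4, 105 and 102 on the Ring1B KO control, Ring1B KO and double KO control arrays at its brighter probe set (1417487_at). On the double KO array it was below the floor, at 6.60. It was at least 2.79-fold lower there than on its own control and at least 2.39-fold lower than on the other control. At this scaling Fosl1 was the 1 member for which both controls gave a drop past 2-fold. With the values as deposited, Jun and Ier3 were past 2-fold below both controls too. Jun then read 118 on the double KO array, 335.5 on its control and 455 on the Ring1B KO control, and Ier3 164, 419.5 and 717. The second Fosl1 probe set (1417488_at) was near the floor throughout, at 38.2, 38.3, 41.6 and 27.3, and allows only a bound of 1.14-fold. With the mean over both probe sets, both of them bounds, the log2 bound against the own control was -0.83, which does not reach 2-fold.

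For Jun, the central partner in AP-1, the signals were 252, 377, 579 and 222 in the order Ring1B KO control, Ring1B KO, double KO control and double KO (1417409_at). Its second probe set (1448694_at) gave the same order of arrays, at 100.02, 135, 289 and 79.95. Jun was 1.49-fold higher on the Ring1B KO array than on its control, and 1.35-fold at the second probe set. On the double KO array it was 2.61-fold lower than on its control, and 3.62-fold lower at the second probe set. The double KO control was in turn 2.30-fold above the Ring1B KO control, while the double KO array was 1.14-fold below that array. At this scaling, Jun on the double KO array thus lay next to the control of the other pair and far below only its own control.

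Junb, a Jun relative with weaker activating capacity, stayed within a narrow band at 157, 124, 207 and 196 on the 4 arrays in the same order. It was 1.27-fold lower on the Ring1B KO array and 1.06-fold lower on the double KO array than on the respective control, the latter turning to a log2 difference of 0.11 under scaling to a common median. Its highest and lowest arrays were 1.67-fold apart, so it did not share the drop of Fos and Jun in the double KO comparison.

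Egr1 differed from Fos, Fosl1, Jun and Junb in which array was highest. It read 211 on the Ring1B KO control array, 179 on the Ring1B KO array, 453 on the double KO control array and 812 on the double KO array. The double KO array was highest, 1.79-fold above its own control and 3.85-fold above the Ring1B KO control. In the Ring1B comparison Egr1 was 1.18-fold lower. The control arrays were 2.14-fold apart, a larger gap than either KO array had to its own control.

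Atf3 had the widest range of the 8 members above the floor on all 4 arrays, 7.24-fold between its highest and lowest array. Its signal was 47.4 on the Ring1B KO control array, close to the floor, and 140 on the Ring1B KO array, which was 2.96-fold higher. On the double KO pair it read 343 on the control array and 171 on the double KO array, a 2.003-fold difference that lies at the threshold, with a log2 difference of -1.002. Both arrays of the double KO pair were above both of the Ring1B pair at this scaling. The Ring1B KO array was accordingly 2.45-fold below the double KO control, and the double KO array 3.61-fold above the Ring1B KO control. As deposited, Atf3 was highest on the Ring1B KO array, at 253 against 199 on the double KO control. It then read 85.5 on the Ring1B KO control and 90.8 on the double KO array.

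Ier2 was among the steadiest members, at 1975, 2077, 1971 and 2680 in the order Ring1B KO control, Ring1B KO, double KO control and double KO. The control arrays differed by 0.00 on the log2 scale, and the double KO array was 1.36-fold above its control. Ier3, which acts in survival signalling, followed the order of Jun, at 397, 478, 725 and 310.0. It was 1.20-fold higher on the Ring1B KO array than on its control and 2.34-fold lower on the double KO array than on its control. Against the Ring1B KO control the double KO array was 1.28-fold lower.

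Dusp1, the MAP kinase phosphatase, was lowest on the Ring1B KO array, at 1525 against 2522 on its control, or 1.65-fold lower. It read 2121 on the double KO control and 2384 on the double KO array, 1.12-fold higher. The Ring1B KO array was the lowest of the 4 for Dusp1, and 1.39-fold below the double KO control as well.

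Ranks within an array do not depend on the scaling between arrays. Fos moved from the 49.7th and 52.5th percentile of named genes on the Ring1B KO control and Ring1B KO arrays to the 77.4th on the double KO control and the 62.5th on the double KO array. Egr1 stood at 60.5 and 57.9 on the first pair and at 71.6 and 81.6 on the second, again with the double KO array highest. Atf3 ran from 39.0 on the Ring1B KO control to 66.7 on the double KO control. Ier2 kept between 92.5 and 94.6 and Dusp1 between 90.5 and 94.8. The median percentile of the 9 members above the floor was 60.5 and 57.9 on the Ring1B pair, 75.7 on the double KO control and 62.5 on the double KO array.

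**Figure D2:**
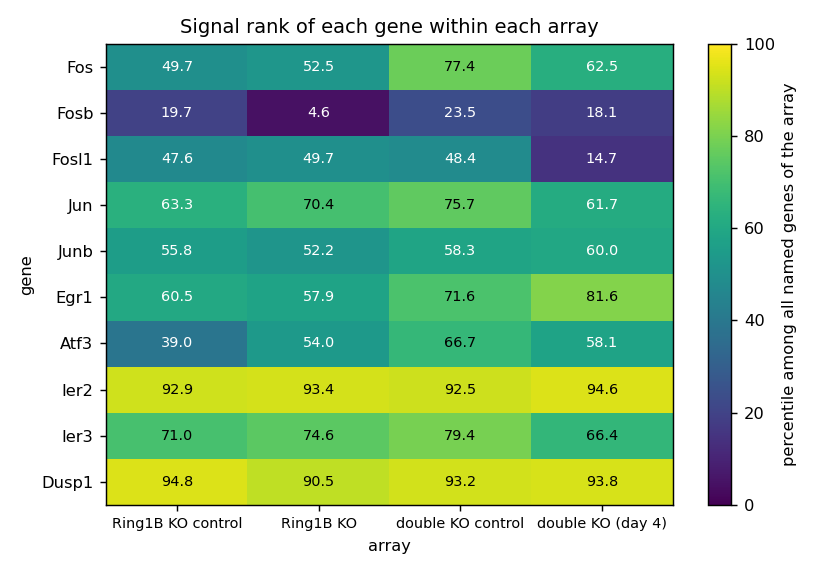
Percentile of each gene's scaled signal among all 18194 named genes of the same array, with the 10 genes in rows and the 4 arrays in columns; the number in each cell is the percentile. Rows are read across, since probe sets differ in binding: Fos is highest on the double KO control array (77.4) and Egr1 on the double KO array (81.6).

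In the Ring1B comparison, Atf3 was the 1 member of 9 at least 2-fold higher, beside 3.57% of 12367 genes, and 0 were at least 2-fold lower, beside 2.6%. The other 8 members lay between log2 differences of -0.73 (Dusp1) and 0.58 (Jun). The median over the 9 was 0.27, with a median of -0.02 over all genes. Atf3's difference was larger in size than that of 98.5% of the genes compared, Dusp1's than 87.6% and Jun's than 80.9%. With the floor at the 60th percentile of signals, Atf3's dim control signal fell below the floor, and its 0.15 is then only a lower bound. Against the double KO control array, by contrast, Atf3, Fos and Egr1 were at least 2-fold lower (11.2% of all genes), with log2 differences of -1.29, -2.32 and -1.34, and 0 members were at least 2-fold higher (8.04%).

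In the double KO comparison, 5 of 9 members (Fosl1, Fos, Jun, Ier3 and Atf3) were at least 2-fold lower, beside 10% of 12385 genes, and 0 were at least 2-fold higher, beside 3%. Egr1 was nearest on the other side, with a log2 difference of 0.84. The member median was -1.002, which is the value of Atf3, against -0.05 over all genes. Under 8 alternatives of scaling, floor and probe sets the member median ran from -0.83 to -0.54. The main value lies outside that range, and no alternative median reached 2-fold. Atf3 lies at the threshold, at -0.81 under a common median or quantile normalization and at -0.94 with a pseudocount of 16, and 4 members are lower without it. Fosl1 has only bounds here, and the bound was -0.65 with the values as deposited and -3.10 when a floor at the 20th percentile was used. The drop in Fos exceeded that of 94.2% of genes in size, Jun's 93.5% and Ier3's 91.3%. Against the Ring1B KO control array at this scaling, Fos, Egr1 and Atf3 were at least 2-fold higher instead (7.83% of all genes). Fosl1 was there the 1 member at least 2-fold lower (9.92%).

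Between the control arrays, both labelled wild-type, Fos, Atf3, Jun and Egr1 were at least 2-fold higher on the double KO control, 4 of 9 members beside 12.2% of 12693 genes. None of the 9 was at least 2-fold lower, beside 8.19%. The member median was 0.87 against 0.13 over all genes. The direction rests on the scaling of the pairs. With the values as deposited every difference between the control arrays shifts by -1.64 above the floor, Jun and Egr1 came to -0.44 and -0.54, and the member median to -0.77 against -1.32 over all genes. Fos (0.997) and Atf3 (1.22) were higher there too. This comparison shares an array with each of the others, so the differences are not independent of them.

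**Figure D3:**
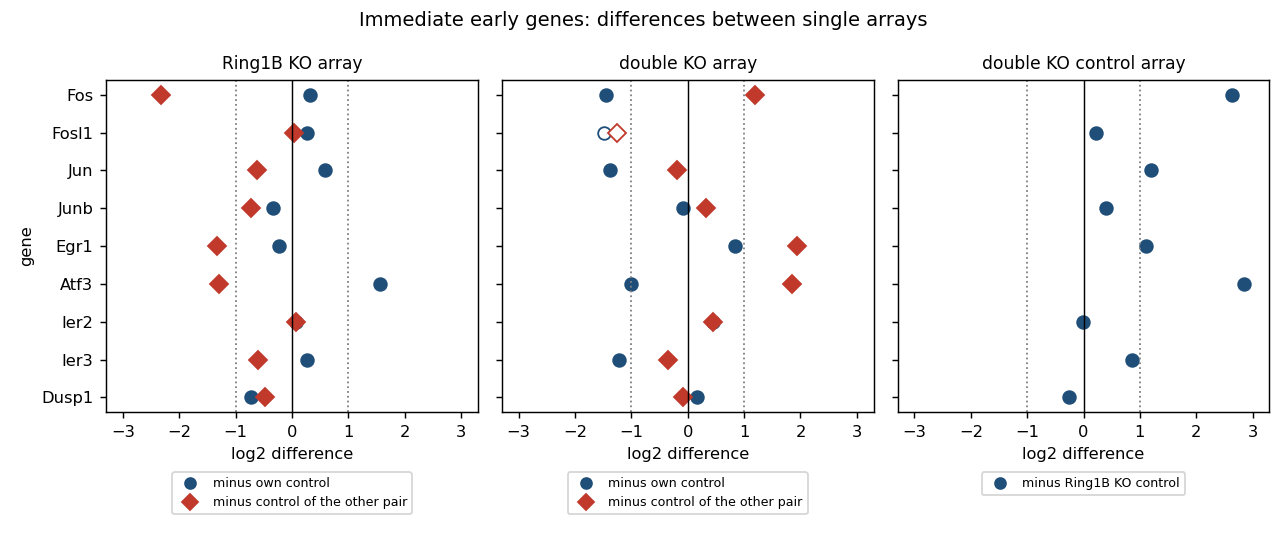
Log2 differences of the 9 genes above the floor, for the Ring1B KO array, the double KO array and the double KO control array; circles are against the own control (in the right panel, the Ring1B KO control) and diamonds against the control of the other pair. Open symbols are bounds and dotted lines mark 2-fold. At this scaling Fos and Atf3 change side between the circle and the diamond in both left panels, and Fosl1 on the double KO array is below -1 against both controls.

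The Ring1B and double KO comparisons share no array. Of 9 members, 7 had opposite signs in the 2 comparisons (77.8%), beside 62.1% of 11612 genes above the floor in both, so opposite signs were common over the arrays as a whole. Fos, Fosl1, Jun, Atf3 and Ier3 were higher on the Ring1B KO array and lower on the double KO array than on the respective control, and Egr1 and Dusp1 the reverse. Atf3 alone was past 2-fold in both. Between the KO arrays themselves, Egr1 was 4.54-fold higher on the double KO array (10.6% of genes were at least 2-fold higher) and Fosl1 at least 2.87-fold lower (12.7% were at least 2-fold lower), and the other 7 members were under 2-fold apart.

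Related genes were described from lists chosen by function, but with earlier results of these data known. Each is set beside the same share and median over all genes given above. These shares describe the 4 arrays and are no independent support. All list medians between the control arrays turned negative or stayed so with the values as deposited, from -1.66 to -0.62. Of 16 further AP-1, ATF and CREB family genes named on the array, 15 could be compared in the double KO comparison. There 3 of 15 were at least 2-fold lower (10% of all genes) and 0 higher (3%), with a median of -0.62. These were Fosl2, which encodes Fra-2 (102 on the control and below the floor on the double KO array, at least 2.80-fold lower), Batf3 (at least 2.62-fold lower) and Atf5 (2.05-fold lower). In the Ring1B comparison Batf was at least 3.45-fold and Fosl2 2.10-fold higher, 2 of 16 (3.57% of all genes), with 0 lower (2.6%) and a median of 0.23. Between the controls 6 of 15 were higher (12.2% of all genes) and 0 lower (8.19%), with a median of 0.51. They were led by Jdp2, a repressor of AP-1, which was 6.24-fold higher on the double KO control, then Mafg (3.02-fold) and Atf5 (2.87-fold).

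Of 39 other rapid response genes named, 35 could be compared in each of the 3 comparisons, though not the same 35, since Egr4 was above the floor on the Ring1B KO array only and Nr4a2 on the arrays of the double KO pair only. On the double KO array 11 were at least 2-fold below its control (10% of all genes) and 0 above it (3%), with a median of -0.54. Ccn1, a secreted matrix protein induced by serum, read 823, 1325, 2413 and 407 on the Ring1B KO control, Ring1B KO, double KO control and double KO arrays and was 5.93-fold lower on the last than on its control. Zfp36, whose product destabilises short-lived messenger RNAs, was 3.18-fold lower, and the kinase gene Plk2 3.16-fold. In the Ring1B comparison only Tnfaip3 (2.15-fold higher) and Cebpd (2.02-fold lower) were past 2-fold, beside 3.57% of all genes higher and 2.6% lower, with a median of 0.02. Between the controls 7 were higher (12.2% of all genes) and 5 lower (8.19%), with a median of 0.17. These counts became 8 and 1 under a common median and 0 and 25 of 37 with the values as deposited. Gadd45b (3.94-fold), Zfp36 (3.45-fold) and Ccn1 (2.93-fold) were higher on the double KO control, and Zfp36l1 (3.04-fold), Cebpd (2.22-fold) and Plk3 (2.08-fold) lower.

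Genes of the pathway upstream come next. The list held 17 genes for serum response factor, its ETS and MRTF partners, the EGR co-repressors and MAP kinases. In the double KO comparison 1 was at least 2-fold lower (10% of all genes) and 0 higher (3%), with a median of -0.17. The lower gene was Nab2, a co-repressor of EGR proteins, at 128 on the control and below the floor on the double KO array, at least 3.51-fold lower. The list's median turned to 0.02 under a common median scaling. Against the Ring1B KO control, 4 of 17 were lower on the double KO array (9.92% of all genes) and 0 higher (7.83%). Against the Ring1B KO array 4 were lower (12.7%) and 1 higher (10.6%). In the Ring1B comparison 1 of 17, the kinase gene Rps6ka5, was 2.34-fold lower (2.6% of all genes) and 0 were 2-fold higher (3.57%), with a median of -0.07. Between the controls only Mrtfa, 2.11-fold higher on the double KO control (12.2% of all genes), and Elk3, 3.20-fold lower (8.19%), were past 2-fold (median -0.02).

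Among 9 textbook targets of AP-1 above the floor, 6 were at least 2-fold lower on the double KO array than on its control (10% of all genes). None was at least 2-fold higher (3%), and the median was -1.58. Mmp9, a matrix metalloproteinase gene, read 41.7, 79.6, 460 and 77.5 on the 4 arrays and was 5.93-fold lower. Mmp13 was 3.85-fold lower and Plaur, the urokinase receptor gene, 3.73-fold. On the double KO control, Mmp13 was at least 16.7-fold and Mmp9 and Mmp3 each 11.0-fold above the Ring1B KO control. Between these arrays 4 of 9 were higher (12.2% of all genes) and 0 lower (8.19%), with a median of 0.84. In the Ring1B comparison 0 of 8 were past 2-fold in either direction, beside 3.57% of all genes higher and 2.6% lower, with a median of 0.59.

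Atf3 is also a known target of ATF4, the factor that drives the integrated stress response. Genes of that response and of ER stress, a list that also holds Atf4 itself, differed more between the controls than between KO and control. At this scaling so did all genes, by the shares given beside each count. None of 11 was past 2-fold in the Ring1B comparison (median 0.00), where 3.57% of all genes were higher and 2.6% lower. The double KO comparison also had 0 of 11 past 2-fold, beside 3% of all genes higher and 10% lower. The list median there was 0.05, and -0.03 under quantile normalization. Between the controls 6 were at least 2-fold higher (12.2% of all genes) and 1 lower (8.19%) on the double KO control, with a median of 1.02. With the values as deposited 0 of 11 were higher and 5 lower (65.2% of all genes were lower). The list median was then -0.62, against -1.32 over all genes. Trib3 read 463, 399, 2503 and 2369 on the 4 arrays and was 5.41-fold higher on the double KO control than on the Ring1B KO control. Chac1 was 4.67-fold and Ppp1r15a 4.52-fold higher, and Xbp1 was 2.04-fold lower.

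**Figure D4:**
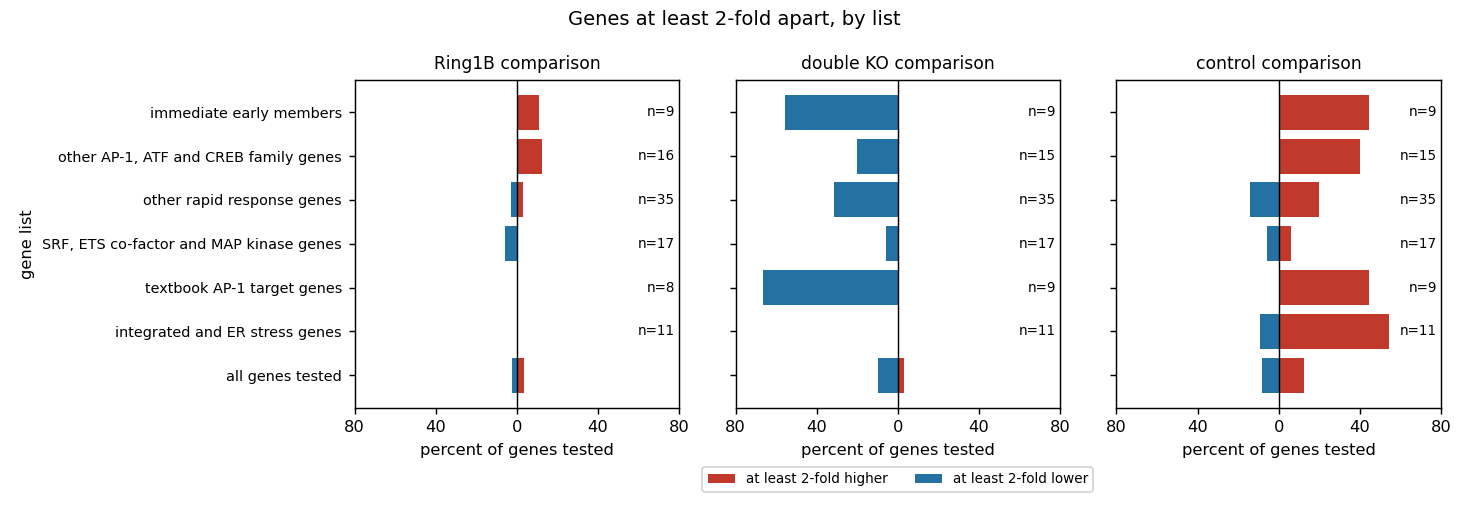
Percent of the genes compared (number beside each bar) that were at least 2-fold higher (right of 0) or lower (left of 0), by list and comparison; the bottom bar is all genes. In the double KO comparison 5 of 9 immediate early genes and 6 of 9 AP-1 targets were lower, beside 10% of all genes. Of 11 stress genes 0 were past 2-fold there, beside 3% of all genes higher and 10% lower. Genes and lists were chosen with earlier results of these data known.

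Sums of marker genes of other cell types differed between the arrays. Trophoblast markers (8 named) summed to 2636 and 3143 on the Ring1B KO control and Ring1B KO arrays, to 9119 on the double KO control and to 2284 on the double KO array, with 5, 7, 7 and 5 of them above the floor. Fibroblast markers (10 named) summed to 3764, 6383, 3048 and 840 in the same order, with 9, 9, 10 and 7 above the floor. On the double KO array 8 of 10 were at least 2-fold below the control, beside 10% of all genes. Primitive endoderm markers (10 named) summed to 1653, 7781, 1246 and 230, with 6, 8, 7 and 2 above the floor. The trophoblast sum was highest on the array where Fos, Jun, Junb, Atf3 and Ier3 were highest, but on that array it was mostly the keratin genes Krt18 (5523) and Krt8 (2293), while Tfap2c of the same list read 1496 on the Ring1B KO control and 312 on the double KO control. Without both keratins, a sum taken after the values were seen, the 4 arrays read 1660, 1008, 1304 and 485, so that the double KO control was no longer highest. Most of that sum on the Ring1B KO control was Tfap2c. Of 7 trophoblast markers compared between the controls, 5 were at least 2-fold higher on the double KO control (12.2% of all genes) and 1 lower (8.19%), with a median of 2.39. Gata3 read 5.32, 38.8, 370 and 39.2 on the 4 arrays, and Eomes 85.3, 164, 453 and 87.5. The fibroblast and endoderm sums were higher on the Ring1B KO array and lower on the double KO array than on the respective control, as Fos, Fosl1, Jun, Atf3 and Ier3 were. Between the controls their medians were -0.16 and -0.53 at this scaling, below the 0.13 over all genes, while the member median of 0.87 was above it. ES cell markers (8 named) summed to 53957, 43664, 42317 and 57413, with medians of -0.32 in the Ring1B comparison, 0.66 in the double KO comparison and -0.69 between the controls, each opposite in sign to the member median at this scaling. Pdgfra stands in both the fibroblast and the endoderm list. Elf5, Afp and Apoa1 were below the floor on all arrays, and among others Cdx2, Gata6, Sox7, Sox17 and Pdgfra were on the double KO array. The part of these cells in the results was not tested, and in bulk RNA fewer cells of a type and less RNA per cell cannot be told apart. The 3′ over 5′ signal of Actb, which rises as RNA degrades, was 1.16 to 1.26 on the 4 arrays.

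The genes most alike were sought for members above the floor on all arrays with a range of at least 2-fold, by the root mean square difference of mean-centred log2 profiles over the 4 arrays among 10018 genes. For Fos they were Gdpd1 (0.04) and Rnf128 (0.12), for Jun Csrp1 (0.03) and Ptpn9 (0.04), and for Ier3 Tedc2 (0.02) and Lpp (0.03). Egr1 was nearest to Shfl (0.06) and Stx3 (0.08), and Atf3 to Sdr39u1 (0.19) and Dpp4 (0.22). Csrp1, for example, read 998, 1478, 2266 and 831 on the arrays where Jun read 252, 377, 579 and 222. With 4 values a gene, such likeness is a description of these arrays only.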

How the data were processed

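Total RNA of 4 ES cell samples, 1 a group, was labelled with biotin and hybridised to 1 array each. The deposited values are signal intensities on a linear scale, which the authors computed with MAS5, per the submitters' processing notes; version, settings and genome build are not given in the sources used here. Detection calls and saturation were not used. Each array was scaled so that its mean without the top and bottom 2% equalled the geometric mean over the arrays, with factors of 0.554, 0.554, 1.73 and 1.89. Signals were floored at 36.6 and log2-transformed. A value below the floor on 1 side gives a bound. Probe sets with 1 symbol (34958) were named from the platform annotation, 932 had several symbols and 9211 none here. The brightest probe set stood for a gene. Calls are at least 2-fold, without a test. Named genes were all members, up to 3 genes per direction of each list past 2-fold, and 2 most alike genes per member. Members and lists were chosen with earlier results of these data known. Alternatives covered scaling, floor, probe set choice and control array. The steps were tested on simulated data (Python 3.11.15, pandas 2.3.3, scipy 1.17.1).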

Additional observations from a re-analysis of the deposited data

Results flagged for a closer look

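Atf3 was past 2-fold in opposite directions in the 2 comparisons, higher on the Ring1B KO array (log2 difference 1.56) and lower on the double KO array (-1.002) than on the respective control. The double KO difference minus the Ring1B difference was -2.57. This gap was not tested, since each group is 1 array. The double KO value sits at the 2-fold threshold.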

How the results depend on the processing

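No paired analysis was possible because each group is 1 array and the labels carry no replicate numbers. Of 228 values of single members under the alternatives, 205 kept their direction past 2-fold, or stayed under it. That count includes values that a setting left as they were. Examples are probe set choice for members with 1 probe set, and deposited values in the Ring1B pair, whose arrays had the same scaling factor. Values under 2-fold were counted as kept whatever their sign, so the count is no measure of stability. With the other pair's control array in place of the own one, the Ring1B comparison had 0 members at least 2-fold higher and 3 lower, with a median of -0.62, and Atf3 turned to -1.29. The double KO comparison then had 3 higher and 1 lower, with a median of 0.31, and Fos and Atf3 turned to 1.19 and 1.85. This swap crosses the pairs and was run at the main scaling only. As deposited, Fos on the double KO array (124) was below both controls (369 and 185). Atf3 on the Ring1B KO array (253) was above both (85.5 and 199). Fos on the Ring1B KO array (230) was still below the double KO control, and Atf3 on the double KO array (90.8) still above the Ring1B KO control (85.5). With values as deposited, which carry the pairs' different means, the control comparison had 1 member higher and 4 lower, with a median of -0.77, Jun at -0.44 and Egr1 at -0.54. The median over all genes was then -1.32 in place of 0.13, and 65.2% of genes were lower and 0.70% higher. Scaling to a common median gave 1 member higher in the double KO comparison (Egr1, 1.04), with 4.79% of all genes higher and 7.79% lower, and moved the all-gene median there to 0.13 and between the controls to 0.29. A floor at the 60th percentile left 0 members higher in the Ring1B comparison, where Atf3 gave only a lower bound of 0.15. Within the pairs, under the 8 alternatives of scaling, floor and probe sets, the count of members lower in the double KO comparison was 4 to 5. The member median there ran from -0.83 to -0.54, a range that does not hold the main value of -1.002. Atf3 missed 2-fold there under a common median (-0.81), quantile normalization (-0.81) and a pseudocount of 16 (-0.94). Fosl1 gave only a bound there, -0.65 with values as deposited, -0.83 with the mean over probe sets and -3.10 when a floor at the 20th percentile was used, and it enters the counts and medians at that bound. Signals near or below the floor limit the values of Fosl1, Fosb and, on the Ring1B KO control, Atf3.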
